A study of Mus musculus with 12 samples.

Results

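The 8 genes Acan, Bcan, Ncan, Vcan, Hapln1, Hapln4, Tnr and Tnc encode core proteins of the brain extracellular matrix, and they were chosen by name among the 20989 loci measured. Each of them matched 1 locus in all 12 libraries. RNA was measured in the auditory cortex of acute coronal brain slices from 6 C57bl6/J mice at an age of 4 weeks. The slices were cut along the midline, so that each mouse gave 1 control and 1 cocktail library. Control hemispheres were kept for 1 h in fresh aCSF, the artificial cerebrospinal fluid in which all hemispheres had rested before. The complementary hemispheres spent 1 h in aCSF with a pharmacological cocktail that held DL-Norepinephrin hydrochloride, Dopamine hydrochloride and Serotonin hydrochloride at 100 µM each, (-)-Bicuculline methiodide and carbamoylcholine chloride at 50 µM each, and ascorbic acid at 40 µM. Bicuculline blocks GABA-A receptors, carbamoylcholine activates acetylcholine receptors, and the 3 monoamines act on their own receptors. The study's methods add a rest of 1 h in aCSF for both hemispheres after this step, which the sample labels do not give. Poly-A RNA was sequenced from the dissected tissue, which had been sliced and incubated in the control group too. The comparison asks which matrix mRNAs changed in cortical tissue in which neuronal activity had been raised.

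Brain matrix is built on hyaluronan chains, which are extruded by synthases in the plasma membrane. Lecticans, a family of chondroitin sulfate proteoglycans, bind hyaluronan at one end and tenascins at the other, and link proteins fasten the bond to hyaluronan. Around many parvalbumin interneurons of the cortex this lattice is condensed into perineuronal nets, which mature during postnatal life and are known to limit plasticity. Matrix proteins are long lived, and their mRNA level is not a measure of the amount of net.

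In this tissue the 8 mRNAs spanned a 111-fold range, from brevican (Bcan) at the top to aggrecan (Acan) at the bottom. None of the 7 genes that could be tested was called different between cocktail and control, and at the 1.5% of all 12032 loci that were called, no call among 7 genes is the background. Of 66 tested genes in 5 other matrix lists, 2 were called (3.03%). These lists were chosen with earlier results of these data known. The called genes were the lectican-cleaving protease Adamts1 and the neuronal pentraxin Nptx2, a net-bound protein. Each rose in 6 of 6 mice, and 6.3% of all loci tested moved in the same direction in all 6 mice. Adamts4, a related protease, was not called. The share of spread that lay between the mice ran from 44.8% for Tnr to 81.7% for Hapln4, against a median of 60.0% over all loci tested. In bulk tissue, fewer cells of a type and less RNA per cell cannot be told apart.

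The stretches upstream of the start sites are shown for the 2 members with the highest level, for the single member with a motif match and for Adamts1, since cocktail treatment raised immediate-early transcription factors that bind short motifs. The sequences are the 250 bases before the annotated start in RefSeq on GRCm38.p6, read 5′ to 3′ on the strand of the gene, and all 4 genes lie on the minus strand. Bcan is at chr3:88000357-88000606, Ncan at chr8:70120845-70121094, Tnc at chr4:64047016-64047265 and Adamts1 at chr16:85803114-85803363. Capitals mark the motif matches.
Bcan: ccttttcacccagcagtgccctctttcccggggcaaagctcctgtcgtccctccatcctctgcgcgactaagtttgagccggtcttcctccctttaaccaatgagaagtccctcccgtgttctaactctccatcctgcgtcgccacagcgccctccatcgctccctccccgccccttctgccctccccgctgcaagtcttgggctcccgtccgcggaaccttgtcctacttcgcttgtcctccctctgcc
Ncan: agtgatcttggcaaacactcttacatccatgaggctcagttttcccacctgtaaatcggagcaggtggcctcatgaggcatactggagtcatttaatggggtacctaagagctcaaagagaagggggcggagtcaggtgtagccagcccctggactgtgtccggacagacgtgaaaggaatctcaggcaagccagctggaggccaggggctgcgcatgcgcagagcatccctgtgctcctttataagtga
Tnc: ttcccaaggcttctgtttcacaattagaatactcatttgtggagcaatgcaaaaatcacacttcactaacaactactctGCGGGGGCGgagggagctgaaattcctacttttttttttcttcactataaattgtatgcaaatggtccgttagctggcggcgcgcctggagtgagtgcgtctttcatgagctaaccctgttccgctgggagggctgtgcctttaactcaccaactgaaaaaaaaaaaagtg
Adamts1: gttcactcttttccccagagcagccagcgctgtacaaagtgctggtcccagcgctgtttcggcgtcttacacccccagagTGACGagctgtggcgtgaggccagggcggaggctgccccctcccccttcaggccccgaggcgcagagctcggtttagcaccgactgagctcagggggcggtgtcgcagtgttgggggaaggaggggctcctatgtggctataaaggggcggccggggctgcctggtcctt
The motifs searched on both strands were the AP-1 site TGANTCA, the cAMP response element TGACGTCA, its part TGACG, which the full element contains, and the EGR site GCGNGGGCG. Windows were found for 7 of the 8 members, and Hapln4 had no entry. The AP-1 site and the cAMP response element had no match in these 7 windows, against 6.75% and 1.55% of all 32851 windows. TGACG had no match in the members and 1 match in Adamts1, at position -170 from the start, and 17.8% of all windows held it. The EGR site was matched once, in Tnc at position -171, and 4.7% of all windows held it. These matches are a description of the letters in a short window. GC content was 62% in Bcan, 54.4% in Ncan, 44.8% in Tnc and 65.6% in Adamts1, with a median of 52.4% over all windows.

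Baseline levels were read from the 6 control libraries. Values are FPKM, a count of fragments scaled to transcript length and to the mapped fragments of the library. Levels of different genes can be compared on this scale as far as its length scaling holds. The order was Bcan, Ncan, Hapln4, Tnr, Hapln1, Vcan, Tnc and Acan. Each of the 7 neighbouring pairs was in this order in 6 of 6 libraries, and no pair had overlapping ranges. The order was read from these same libraries, so that the permutation tests by sign flips run on its pairs lend it no support and are not quoted. In the 6 cocktail libraries each pair was also in this order 6 of 6 times, with no overlap of ranges. Ncan had more reads than Bcan in every library, and 39341 against 24400 over the control libraries. The order of these 2 genes thus rests on the length scaling, which its recurrence over libraries does not test. Acan rested on 64 to 121 reads per library and Tnc on 94 to 244, while Bcan had 2532 to 6289, so that the lower end of the order is measured with the larger counting error.

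**Figure D1:**
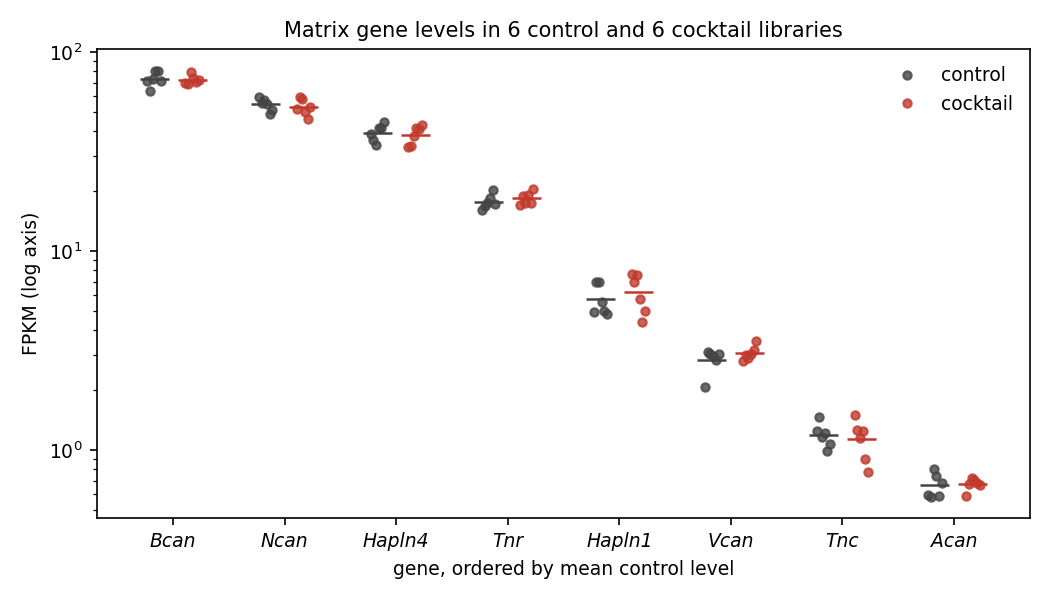
FPKM of the 8 matrix genes on a log axis, with a point for each of 6 control and 6 cocktail libraries and a bar at the mean. Levels fall from Bcan to Acan over a 111-fold range in control, and the groups lie over each other for every gene.

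The lecticans differed most among themselves. Brevican, the short lectican that is abundant in adult brain, is encoded by Bcan at chr3:87987531-88000356 (mm10, minus strand). Bcan had a control level of 73.6 ± 6.26 FPKM (SD, n = 6), above that of 96% of all loci. Neurocan, a lectican made by neurons and astrocytes, is encoded by Ncan at chr8:70093085-70120844 on the minus strand. Ncan had 54.6 ± 3.98 FPKM (SD, n = 6) in control. Versican is encoded by Vcan at chr13:89655310-89742512 on the minus strand and is a lectican of many tissues, made in brain also by cells of the oligodendrocyte lineage. Vcan had 2.84 ± 0.389 FPKM (SD, n = 6) in control. Aggrecan, the lectican that best marks perineuronal nets, is encoded by Acan at chr7:79053483-79115099 on the plus strand. Acan had 0.665 ± 0.0921 FPKM (SD, n = 6) in control, and 39.7% of all loci had a lower level. Of the summed lectican FPKM of 132 ± 5.72 (SD, n = 6), Bcan made up 55.8% ± 3.19 and Ncan 41.5% ± 3.21. Vcan contributed 2.16% ± 0.339 and Acan 0.505% ± 0.0609. In cocktail libraries the shares were 56.1% ± 2.21 for Bcan, 41.0% ± 2.34 for Ncan, 2.39% ± 0.253 for Vcan and 0.521% ± 0.0331 for Acan (SD, n = 6).

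Link proteins and tenascins were each dominated by 1 member. Hapln4, at chr8:70083529-70090862 on the plus strand, encodes a link protein of brain, and it had a control level of 39.3 ± 3.94 FPKM (SD, n = 6). Hapln1, at chr13:89540636-89611832 on the plus strand, encodes cartilage link protein, which is also found in nets, and it had 5.72 ± 1.02 FPKM (SD, n = 6). Hapln4 thus held 87.1% ± 3.07 of the FPKM of this pair in control and 85.8% ± 3.88 in cocktail libraries. Tenascin-R, the tenascin that crosslinks lecticans in nets, is encoded by Tnr at chr1:159523769-159924922 on the plus strand. Tnr had 17.7 ± 1.46 FPKM (SD, n = 6) in control. Tenascin-C is encoded by Tnc at chr4:63959785-64047015 on the minus strand and is best known from developing and injured brain. Tnc had 1.19 ± 0.162 FPKM (SD, n = 6). Tnr held 93.7% ± 1.12 of the summed FPKM of Tnr and Tnc in control and 94.1% ± 1.5 in cocktail libraries. Exons of Tnr and Tnc overlap those of 1 gene each on the opposite strand, Gm38039 and 8030451A03Rik. The reads are strand specific, but whether the FPKM step used the strand is not given in the sources used here.

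Each of the 4 lectican genes lies next to a link protein gene, with no other measured locus between them. The gap was 1927 bases for Acan and Hapln3, 2222 for Ncan and Hapln4, 21393 for Bcan and Hapln2 and 43477 for Vcan and Hapln1. Neighbours were of similar level in the pair of Ncan and Hapln4 and far apart for Bcan, whose neighbour Hapln2, a link protein of the node of Ranvier, had 3.65 ± 0.897 FPKM (SD, n = 6) in control. Hapln3 had 0.551 ± 0.154 FPKM (SD, n = 6), close to Acan, but it rested on only 5 to 20 reads per library. The mean control level of Hapln1 was 2.01 times that of Vcan.

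After the cocktail, the 2 dominant lecticans had nearly the same levels as in control. Bcan had a lowest, median and highest value of 64.0, 72.5 and 80.7 FPKM in control and of 69.0, 71.2 and 79.1 FPKM in cocktail libraries. The cocktail values lay wholly inside the control range, and Bcan was higher in 3 mice and lower in 3. Its log2 fold change, cocktail over control, was -0.021 (SE 0.0505, 95% interval -0.13 to 0.089, limma with Benjamini-Hochberg adjusted p = 0.956). Ncan had 48.9, 54.9 and 59.7 FPKM in control, against 46.1, 52.4 and 59.5 FPKM with the cocktail. The groups overlapped over most of their range, again with 3 mice higher and 3 lower. The log2 fold change of Ncan was -0.042 (SE 0.0494, 95% interval -0.15 to 0.065, limma adjusted p = 0.891). The ratio of Ncan to Bcan was 0.748 ± 0.0989 in control and 0.734 ± 0.0725 in cocktail libraries (SD, n = 6).

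The 2 lecticans of low level did not differ detectably either. Vcan had 2.07, 2.99 and 3.11 FPKM as its lowest, median and highest control values and 2.80, 3.03 and 3.52 FPKM in cocktail libraries. The groups overlapped, and the control library of mouse 1 lay below all 11 others. The log2 fold change of Vcan was 0.093 (SE 0.0629, 95% interval -0.045 to 0.23, limma adjusted p = 0.793), with 4 mice higher and 2 lower, and it was 0.049 without mouse 1. Acan had 0.583, 0.639 and 0.801 FPKM in control and 0.589, 0.676 and 0.721 FPKM in cocktail libraries. The cocktail range of Acan lay inside the control range. Acan was under the mean level of 1 FPKM required for the test, and its mean within-mouse difference on the log2(FPKM + 1) scale was 0.007 (two-sided exact permutation test by sign flips, p = 0.84375, n = 6), with 2 mice higher and 4 lower. In a fit without that level requirement the difference was 0.007 with a 95% interval of -0.070 to 0.084, a scale on which the change of so low a gene is understated. The ratio of cocktail to control FPKM of Acan within a mouse ranged from 0.900 to 1.16.

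**Figure D2:**
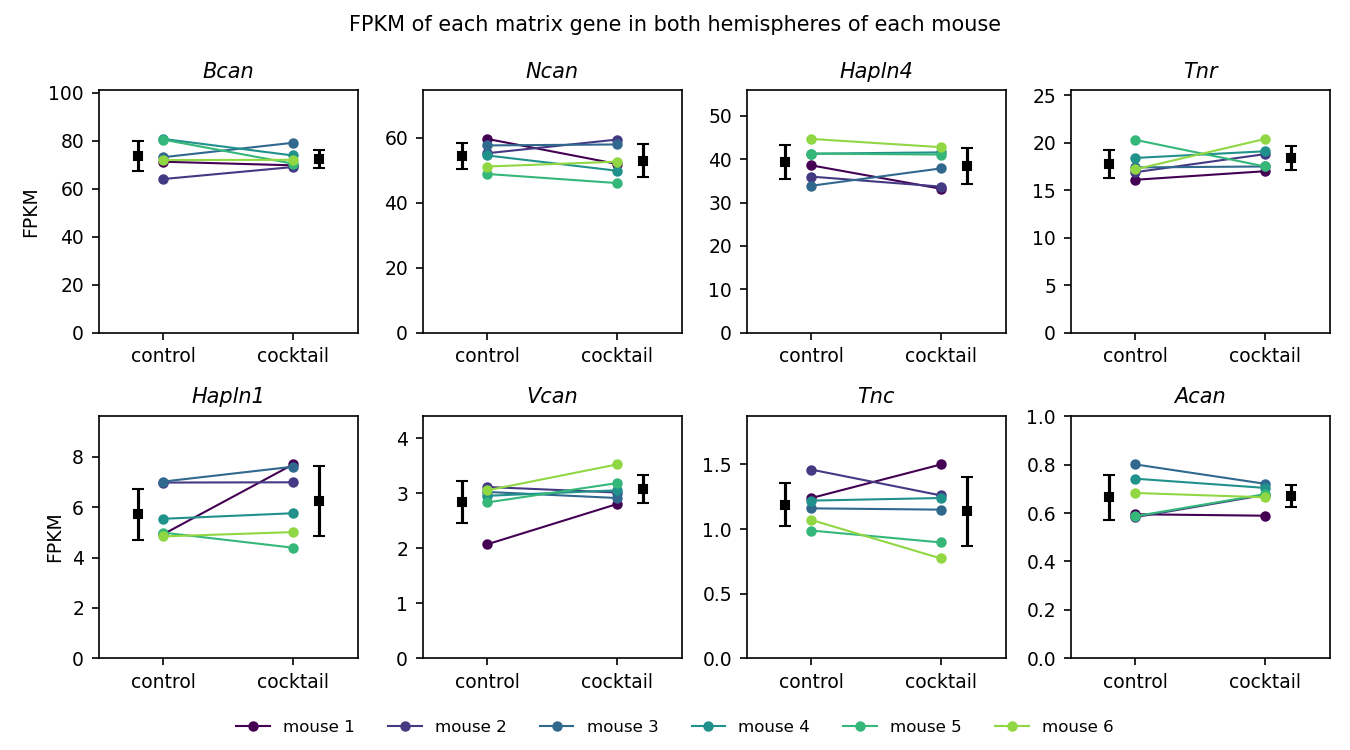
FPKM of each matrix gene in control and cocktail hemispheres, with a line for each of 6 mice, squares for the mean and error bars for the SD, and each axis starting at 0. Lines run up and down in every panel, and the steepest rise is that of Hapln1 in mouse 1, from 4.93 to 7.70 FPKM.

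Among the link proteins, Hapln4 had 33.9, 39.9 and 44.7 FPKM as its lowest, median and highest control values and 33.2, 39.5 and 42.8 FPKM in cocktail libraries. The groups overlapped, with 2 mice higher and 4 lower. Its log2 fold change was -0.034 (SE 0.0517, 95% interval -0.15 to 0.079, limma adjusted p = 0.922). For Hapln1, the control values of mice 1 to 6 were 4.93, 6.98, 7.02, 5.54, 4.99 and 4.84 FPKM, and the cocktail values were 7.70, 6.99, 7.61, 5.76, 4.39 and 5.01 FPKM. The hemispheres of a mouse were close to each other except in mouse 1, where the cocktail hemisphere was the highest of all 12 libraries. Hapln1 had a log2 fold change of 0.10 (SE 0.0800, 95% interval -0.075 to 0.27, limma adjusted p = 0.845), with 5 mice higher and 1 lower. Without mouse 1 it was 0.009 (SE 0.0538, 95% interval -0.11 to 0.13, limma adjusted p = 0.976). The control library of mouse 1 stood apart from the others over all loci as well.

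Of the tenascins, Tnr had 16.1, 17.3 and 20.3 FPKM as its lowest, median and highest control values and 17, 18.1 and 20.4 FPKM in cocktail libraries. The groups overlapped, although 5 of 6 mice were higher after the cocktail. The log2 fold change of Tnr was 0.054 (SE 0.0578, 95% interval -0.072 to 0.18, limma adjusted p = 0.887). Tnc had 0.988, 1.19 and 1.46 FPKM in control, against 0.772, 1.2 and 1.5 FPKM with the cocktail. The cocktail range enclosed that of control, with 2 mice higher and 4 lower. The log2 fold change of Tnc was -0.042 (SE 0.0651, 95% interval -0.18 to 0.10, limma adjusted p = 0.923).

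Over the 7 tested members, 0 passed the limma test after Benjamini-Hochberg adjustment, against 1.5% of all loci (180 of 12032, with 147 or 1.22% higher and 33 or 0.274% lower). At an unadjusted limma p under 0.05 the count was 0 of 7, against 8.05% of all loci, and with voom on recovered reads it was 0 as well. None of the 8 members had groups that did not overlap, against 0.914% of the loci tested, and none moved in the same direction in all 6 mice, against 6.3%. A count of 0 among 7 genes is near what these background shares give and says little by itself. Each gene's own interval, given above, bounds its change on the scale of log2(FPKM + 1). The lowest and highest bounds over the 7 genes were -0.18 for Tnc and 0.27 for Hapln1, ratios of 0.880 and 1.21 on FPKM + 1. Changes of genes of low level are understated on this scale. With a pseudocount of 0.1 the log2 fold change was -0.082 instead of -0.042 for Tnc and 0.12 instead of 0.093 for Vcan. The FPKM ratio of Tnc within a mouse ran from 0.721 to 1.2. The median log2 fold change was -0.021 for the 7 members and 0.008 for all loci. Protein was not measured.

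**Figure D3:**
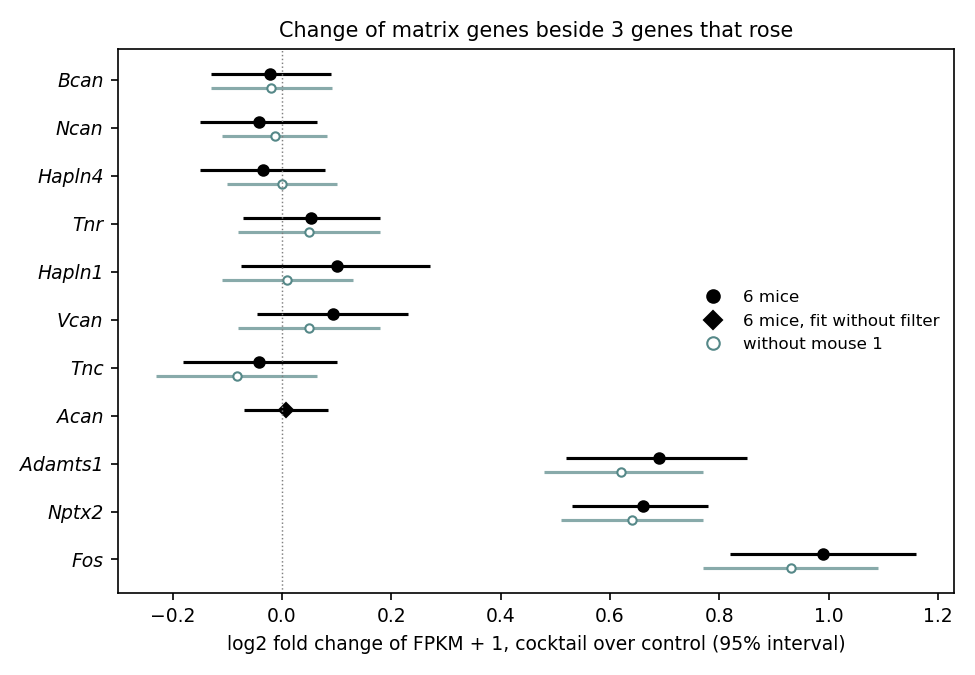
Log2 fold change of FPKM + 1, cocktail over control, with 95% intervals from limma for the 8 matrix genes and for Adamts1, Nptx2 and Fos, in 6 mice and without mouse 1, with Acan only from 6 mice in a fit without the level filter. The intervals of the 8 genes all include 0, and those of the other 3 genes lie at or above 0.48 in both fits.

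The genes that make, cut or bind the members were read from 5 lists with 83 genes, of which 66 were tested and 2 passed (3.03%, against 1.5% of all loci). The lists were chosen with earlier results of these data known, so that the difference between these shares carries no weight. The list of lectican-cleaving proteases and their inhibitors had 1 of 9 tested genes called and 3 with an unadjusted limma p under 0.05. Its median log2 fold change was 0.048, against 0.008 over all loci. Adamts1, at chr16:85793828-85803115 on the minus strand, encodes a secreted metalloprotease that cleaves aggrecan and versican. Adamts1 had 10.8, 14.2 and 16.2 FPKM as its lowest, median and highest control values and 17.8, 23.7 and 25.9 FPKM in cocktail libraries. Every cocktail value was above every control value. Its log2 fold change was 0.69 (SE 0.0753, 95% interval 0.52 to 0.85, limma adjusted p = 0.000366), and the rise within a mouse ranged from 0.36 to 1.01. Adamts4, the related protease that cuts the same lecticans, had 10.5 ± 1.07 FPKM in control and 10.5 ± 0.711 FPKM in cocktail libraries (SD, n = 6), with a log2 fold change of 0.003 (limma adjusted p = 0.994). Timp2, an inhibitor of metalloproteases and the gene with the highest level of this list, had 106 ± 5.55 and 108 ± 6.02 FPKM in control and cocktail libraries. In this list 8 of 9 tested genes had a log2 fold change above 0. The exception was Timp1, another such inhibitor, at -0.13 (limma adjusted p = 0.788).

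The list of matrix receptors and net-bound factors had 1 of 17 tested genes called and 3 with an unadjusted limma p under 0.05, with a median of 0.009. Nptx2, at chr5:144545887-144557478 on the plus strand, encodes a secreted pentraxin that clusters AMPA receptors at synapses on parvalbumin interneurons. Nptx2 had 64.9, 77.5 and 105 FPKM as its lowest, median and highest control values and 92.4, 133 and 156 FPKM in cocktail libraries. The groups overlapped, but within each mouse the cocktail hemisphere was higher, by 0.46 to 0.83 on the log2 scale. Its log2 fold change was 0.66 (SE 0.0575, 95% interval 0.53 to 0.78, limma adjusted p = 6.46e-05), and in a fit without the mouse the adjusted p was 0.0519. Ptprs, a receptor for chondroitin sulfate chains and the gene with the highest level of this list, had 116 ± 5.00 and 113 ± 5.39 FPKM (SD, n = 6). The lowest value was that of Rtn4rl2, a Nogo receptor homologue, at -0.17 (limma adjusted p = 0.743). Otx2, a transcription factor that cortical nets take up from outside, was listed at 0 in all 12 libraries.

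In the other 3 lists no gene passed the limma test with Benjamini-Hochberg adjustment. Of the 17 other proteoglycans and link proteins tested, 2 had an unadjusted p under 0.05 and the median was -0.006. Spock2, a testican and the gene with the highest level in that list, had 138 ± 17.3 and 132 ± 11.5 FPKM in control and cocktail libraries, and log2 fold changes ran from -0.12 for the proteoglycan agrin (Agrn) to 0.23 for decorin (Dcn). Of 18 genes of chondroitin sulfate synthesis and sulfation, 1 had an unadjusted p under 0.05, with a median of -0.016. B3gat3, which adds the last sugar of the linker between core protein and chain, had 58.9 ± 5.43 and 56.6 ± 4.22 FPKM, and the extremes were -0.12 for B3galt6, another linker enzyme, and 0.18 for the sulfotransferase Chst12. Of 5 genes of hyaluronan synthesis, breakdown and binding, 0 had an unadjusted p under 0.05, with a median of -0.015. Ugdh, which makes the UDP-glucuronate used for hyaluronan, had the highest level at 7.62 ± 0.777 and 8.17 ± 0.471 FPKM and also the largest rise, 0.093, and the lowest value was -0.14 for the hyaluronidase Hyal2. The hyaluronan synthases were too low to test, with control levels of 0.341 ± 0.137 FPKM for Has1, 0.149 ± 0.0443 for Has2 and 0.383 ± 0.0395 for Has3 (SD, n = 6).

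**Figure D4:**
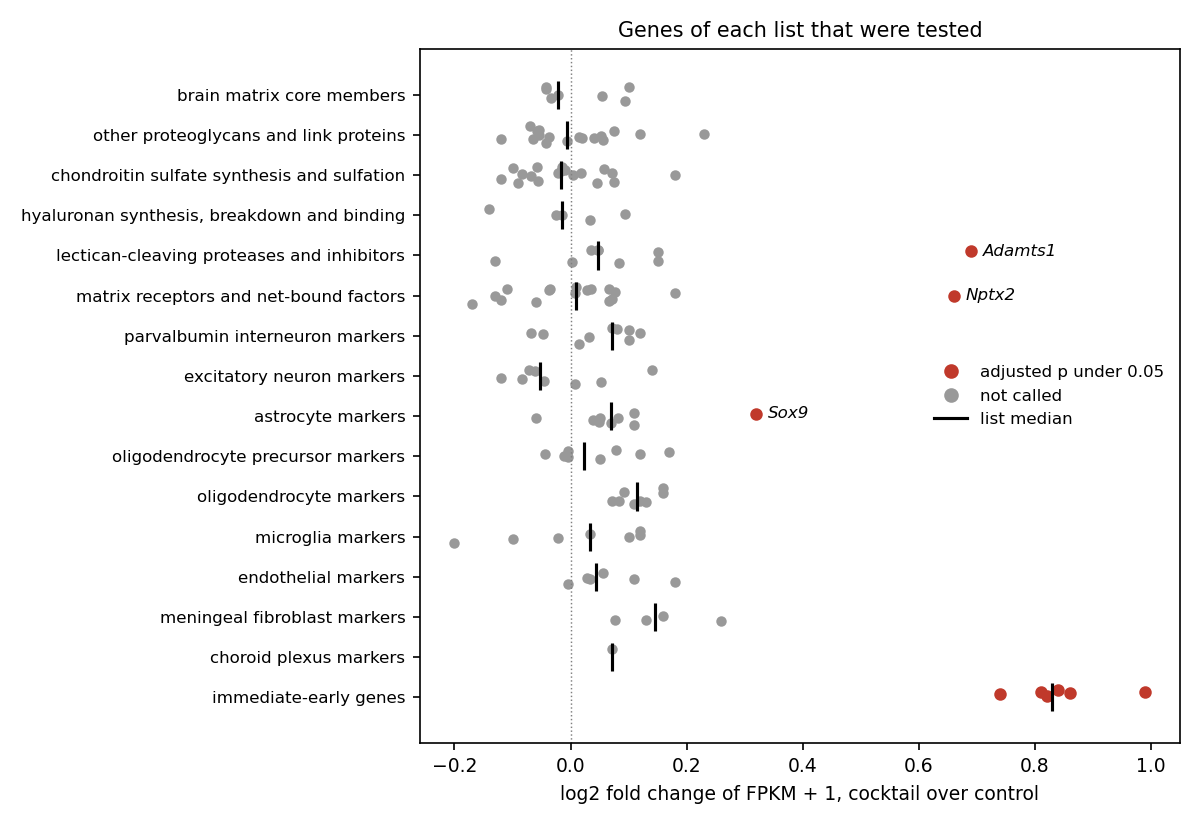
Log2 fold change of FPKM + 1, cocktail over control, for the tested genes of 16 lists, with a point for each gene, a bar at the list median and red for an adjusted p under 0.05. Outside the immediate-early genes, only Adamts1, Nptx2 and Sox9 are red among the genes plotted.

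The members were set beside markers of the cells that make them. Pvalb, the defining marker of the interneurons that bear nets, had 27.0 ± 0.912 FPKM in control and 27.6 ± 1.59 in cocktail libraries (SD, n = 6). None of the 9 tested genes of the parvalbumin interneuron list passed. That list also holds genes shared with other GABA neurons, Gad1 among them. The 10 genes of this list summed to 249 to 285 FPKM in control hemispheres, against 269 to 296 with the cocktail. Gad1 was the most abundant of them at 91.5 ± 5.77 FPKM in control, so that the sum does not stand for Pvalb. The 9 astrocyte markers summed to 493 to 655 FPKM in control and 604 to 669 FPKM with the cocktail, and 1 passed. That gene was Sox9, a transcription factor of astrocytes, with 12.1 ± 1.96 and 15.2 ± 1.27 FPKM (SD, n = 6) and a log2 fold change of 0.32 (limma adjusted p = 0.0235). In a fit without the mouse the adjusted p of Sox9 was 0.214. All 8 oligodendrocyte markers had a log2 fold change above 0 with none called, a median of 0.12, and sums of 2184 to 2783 FPKM in control against 2489 to 2844 with the cocktail. Excitatory neuron markers had a median of -0.054 over 8 genes, oligodendrocyte precursor markers 0.023 over 8, microglia markers 0.033 over 7, endothelial markers 0.044 over 6 and meningeal fibroblast markers 0.15 over 4, and none of these genes passed. Choroid plexus markers summed to at most 1.61 FPKM in control and 1.83 with the cocktail, and their defining gene Ttr was listed at 0 in 11 libraries. The part of cell type in the levels of the 8 genes was not tested. All 6 immediate-early genes examined, transcription factors and effectors known to follow neuronal activity, were called higher, against 1.22% of all loci tested. Their median was 0.83, with limma adjusted p from 5.33e-06 to 0.000132. These genes were chosen with earlier results of these data known, so that the count is a description and no independent check. Fos rose from 322 ± 69.6 to 631 ± 79.5 FPKM (SD, n = 6), and the log2 fold changes of the others were 0.81 for Fosb, 0.86 for Junb, 0.82 for Arc, 0.84 for Nr4a1 and 0.74 for Egr2.

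The variation among the 12 libraries lay partly between mice. The share of a gene's spread in log2(FPKM + 1) that lay between the mice was 81.7% for Hapln4, 78.9% for Tnc, 75.3% for Ncan, 74.3% for Hapln1, 62.7% for Bcan, 62.6% for Vcan and 44.8% for Tnr. The median over all loci tested was 60.0%, with quartiles of 44.8% and 73.6%, so that 4 members were above the upper quartile. Some share lies between mice even without any difference between them, so that a share alone does not show a mouse effect. Mean levels of Hapln4 over both hemispheres were 35.9, 34.8, 35.9, 41.5, 41.2 and 43.7 FPKM in mice 1 to 6. Those of Hapln1 were 6.32, 6.98, 7.32, 5.65, 4.69 and 4.93 FPKM. Hapln4 was thus highest in mouse 6 and Hapln1 in mouse 3, and both link proteins differed between mice 3 and 6 in opposite directions in each hemisphere. Mean levels of Ncan were 55.8, 57.4, 57.8, 52.2, 47.5 and 52.0 FPKM, and those of Tnc 1.37, 1.36, 1.16, 1.23, 0.942 and 0.921 FPKM. The ratio of Hapln4 to Hapln1 accordingly lay between 4.83 and 9.23 in control and between 4.31 and 9.35 with the cocktail. The labels give no litter, sex or day for the mice, and what sets them apart was not tested.

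**Figure D5:**
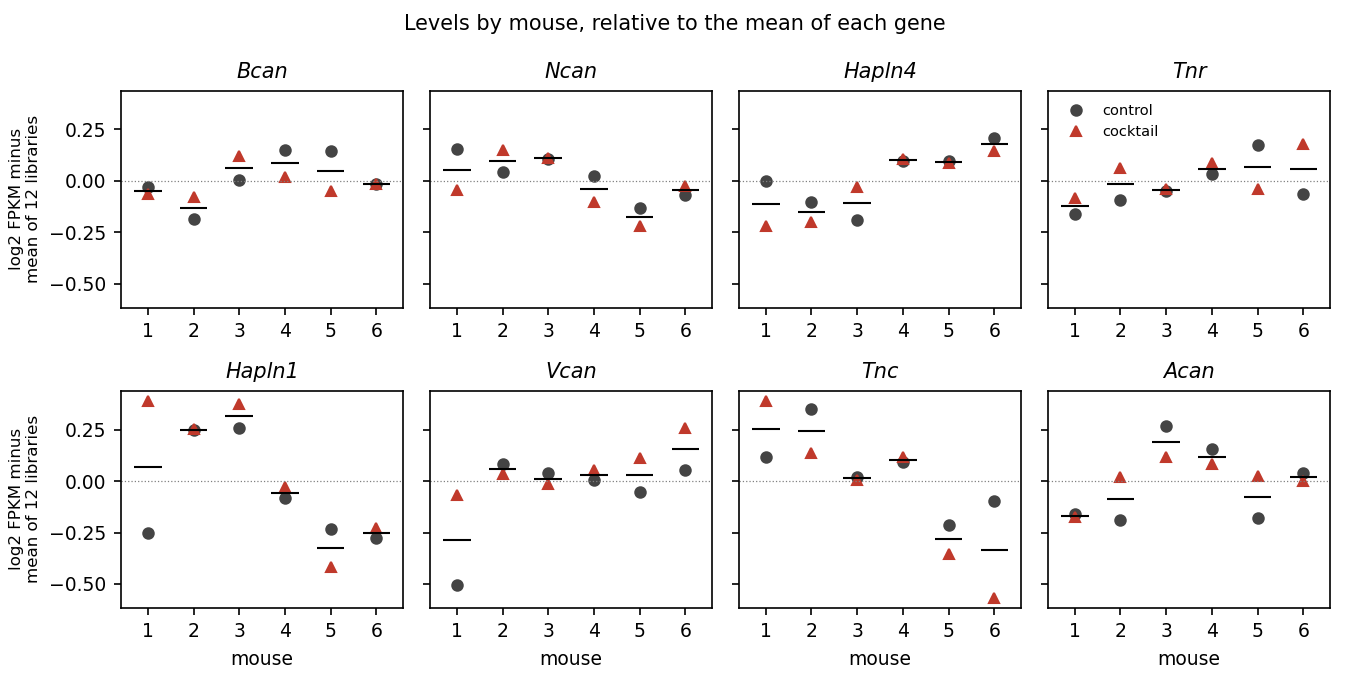
Log2 FPKM of each matrix gene minus its mean over 12 libraries, by mouse, with circles for control, triangles for cocktail hemispheres and bars for the mean of both. Hapln4 lies above its mean in both hemispheres of mice 4, 5 and 6, and Hapln1 below it.

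The profile of each member over the 12 libraries was compared with that of every locus with a mean of at least 5 FPKM, as the root mean square difference of z-scored log2(FPKM + 1), where 0 means the same profile. These values describe likeness over libraries that come in pairs from 6 mice. For Hapln4 the nearest loci were Pnpla6 (0.282), Zer1 (0.342) and 2010107G23Rik (0.365), against a median of 1.32 over all loci. Loci near to Hapln1 were Tbc1d1 (0.335) and Hmgcs1 (0.341), with a median of 1.41. Hapln1 and Hapln4 were 1.91 apart, farther than the median locus from either. For Vcan the nearest were Xk, Vps36 and Nf1, for Tnc they were Klhdc10, Crkl and Lclat1, and for Ncan they were Numbl, D630045J12Rik and Dlgap4. Acan was nearest to Thop1, Pofut2 and Tmem29, Bcan to Wwc2, Fkbp9 and Fam19a5, and Tnr to Dicer1, Nbea and Vps13d. None of the 8 genes had Bcan, Ncan, Hapln4, Tnr or Hapln1, the members abundant enough to be considered, among its 3 nearest loci. With 3 loci taken out of 8521, or 8522 for Acan, Vcan and Tnc, this absence is the background and says little about the members. Bcan, Tnr and Acan had the least close neighbours, with smallest differences of 0.506, 0.469 and 0.457.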

How the data were processed

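Auditory cortex RNA of 6 mice was sequenced as single reads of 50 bp, with 1 control and 1 cocktail library per mouse. Ribosomal RNA reads were screened out by the authors with BWA 0.6.1, reads with 1 placement on mm10 were kept by TopHat 1.4.1, and Cufflinks 1.3.0 gave bias-corrected FPKM. The FPKM values deposited by the authors were used as they are. Their table of comparisons, with mean counts from HTSeq 0.6.1p1, DESeq2 1.6.3 fold changes and p-values, and mean FPKM per group, was not used. Reads behind each value were recovered from the FPKM interval, taken as 2 Poisson SDs (82.8% of 36413 values under 20 reads were whole to within 0.05). Scaled by FPKM and depth, 467 of 144384 recovered values in 316 of the tested loci, Ptprs among them, lay over 1.5 times from their locus median, so that recovered reads are unreliable there, while those of the 8 members lay between 0.869 and 1.29 times. Recovered reads summed to between 10601067 and 19768881 per library and cover counting error only. Control mouse 1 was the deepest library and deviated most from its group mean, by a root mean square of 0.245 on the log2 scale, against 0.111 to 0.141 for the other 11. No libraries were identical.

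Tests used limma 3.58.1 (R 4.3.3) on log2(FPKM + 1) of loci with a mean of at least 1 FPKM, blocked by mouse, with a variance trend and Benjamini-Hochberg adjustment at 0.05. The mouse numbers in the labels pair the hemispheres. Deviations from the group mean correlated by 0.216 to 0.406 (median 0.337) within the 6 mice. Over 30 pairs of different mice the correlation was -0.42 to 0.445 (median -0.0714). These ranges overlap, so that the correlations alone do not identify the pairs. The exact sign-flip permutation test was run over mice, and for the order of levels over control libraries. The fits were tested on simulated data. Alternatives changed the pseudocount, level filter, block, scaling and tool, or left out 1 mouse. Named were all 8 members, every called gene of the fixed lists, the most abundant, highest and lowest gene of each matrix list, and the 3 loci nearest in profile to each member, of which 1 is not reported here. Adamts4, Has1, Has2, Has3, Hapln2, Hapln3, Otx2, Pvalb and Ttr were named beside these after their values were seen, and the extremes of the marker lists are not named. The members and lists were chosen with earlier results of these data known. Exon overlaps came from GENCODE M21, promoter windows from RefSeq on GRCm38.p6, and figures from Python 3.11.15 and matplotlib 3.10.9.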

Additional observations from a re-analysis of the deposited data

Results flagged for a closer look

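Of 51 sets of 6 values examined for a sample far from the others, 3 held one, and chance gives about 1 in 20, or 2.55 of 51. All 3 involve mouse 1, whose control library was the deepest and stood apart over all loci. Vcan had 2.07 FPKM in the control library of mouse 1, against 2.83 to 3.11 FPKM in the other 5 control libraries. Scaled as recovered reads per 1000000 reads of the library, Vcan was at 17.6 in that library and at 17.9 in control mouse 6, so that the gap seen in FPKM was not there on that scale. Hapln1 had a within-mouse log2 difference of 0.55 in mouse 1, while the other 5 had -0.15 to 0.10. On the same scale, Hapln1 was at 20.2 in the control and 35.5 in the cocktail library of mouse 1. Sox9 had a within-mouse log2 difference of 0.63 in mouse 1, where the other mice had 0.20 to 0.34. In recovered reads on the same scale, Sox9 went from 53.5 to 63.8 in mouse 1 and from 49.9 to 61.8 in mouse 6, so that mouse 1 did not stand out there. For other genes the control library of mouse 1 stood apart on that scale instead. It had 318 for Bcan, against 236 to 275 in the other libraries, and 519 for Ncan, against 349.8 to 449. For Acan, Hapln4, Tnr and Tnc it lay within the range of the other libraries. Without mouse 1 the log2 fold change of Sox9 was 0.25 (limma adjusted p = 0.0125).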

How the results depend on the processing

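No member that could be tested was called under any of the 13 alternatives (Acan only without the level filter, Vcan and Tnc not at a mean of at least 5 FPKM), with a smallest adjusted p (limma) of 0.57 among them, under voom on recovered reads. The control order of the 8 genes was the same under all alternatives for it. Medians or a left-out control library could not change it, as no neighbouring ranges overlapped. No alternative changed the length scaling. Bcan turned to 0.012 without mouse 5 (range -0.048 to 0.012 over fits that left out 1 mouse) and Hapln4 to 0.001 without mouse 1 (-0.073 to 0.001), both within their standard errors. Acan turned from 0.007 to -0.008 without mouse 2 and -0.007 without mouse 5. Over the same fits Tnr ranged from 0.017 (without mouse 6) to 0.10 (without mouse 5), Tnc from -0.082 (without mouse 1) to -0.006 (without mouse 6), Ncan from -0.071 (without mouse 2) to -0.012 (without mouse 1) and Vcan from 0.049 to 0.12. Hapln1 ranged from 0.009 (without mouse 1) to 0.18 (voom). Without the replicate block for the mouse, 88 loci were called instead of 180, and voom called 118. Leaving out 1 mouse gave 104 to 181, with 104 without mouse 4. The cause was not tested. Counts were 177 with a pseudocount of 0.1, 123 without the level filter, 131 at a mean of at least 5 FPKM (124 higher, 7 lower), 176 with median-of-ratios scaling and 172 with quantile normalization. Adamts1 was called under all 13, from 0.62 to 0.75. Nptx2 was not called without the replicate block, where the calls of the members did not change. Sox9 was not called under 6 of 13 alternatives, with adjusted p from 0.0556 to 0.214. Acan, with 64 to 121 reads, had a counting error of 10.6% of its level in a single library, against a spread of 13.8% between control libraries.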
